A study of Rattus norvegicus with 32 samples.

Results

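The SLC25 family of mitochondrial carriers was followed in rat liver as 36 genes, out of 13438 genes that had a probe set for a single gene on the array. Members were all genes whose annotated symbol was Slc25a and a number, except Slc25a20, which was left out. Where a gene had several probe sets, the brightest over all arrays stood for it. Of the 36 members, 34 passed the filter on dim probe sets and were tested together with the other genes, 11626 in all, while Slc25a27 and Slc25a31 were too dim and were not tested. Slc25a5 shares its probe set with another gene in the annotation and was not analysed here.

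Liver RNA came from male Wistar Kyoto (WKY) rats, 10 weeks old and weighing 250 to 300 g, which breathed filtered air or ozone at 1 ppm for 6 h per day on 1 day or on 2 days. Ozone is an oxidant gas of polluted air. Livers were taken right after the exposure of day 1 (6 arrays after air, 6 after ozone), right after the exposure of day 2 (5 and 5) and 18 h after the exposure of day 2 (5 and 5), with an air group at all 3 harvest times. Nothing in the labels ties an array to an animal of its own, and p-values therefore cover only the variation among these samples, which may in part be technical.

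SLC25 carriers are proteins of the mitochondrial inner membrane that exchange metabolites, nucleotides, phosphate and cofactors between the cytosol and the matrix. In hepatocytes they link both compartments in the urea cycle, in gluconeogenesis, in the malate-aspartate shuttle and in the export of citrate for lipid synthesis. The carriers are made in the cytosol and reach the inner membrane through the TOM complex of the outer membrane, the small TIM chaperones between the membranes and the TIM22 complex.

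The promoters of 3 members are shown, out of 4 that were higher after ozone on day 1 by at least 0.5 on the log2 scale, because they differ in the motifs they hold. Each line gives the 250 bases before the annotated start (RefSeq, build GRCr8), on the gene's own strand, with the matches in capitals. Whether transcription in liver begins at the annotated start was not tested. Slc25a15 lies at chr16:76336620-76336869 on the plus strand and holds none of the motifs searched. Slc25a22, at chr1:205965878-205966127 on the minus strand, holds 1 GC box. Slc25a33, at chr5:165502974-165503223 on the minus strand, holds the cyclic AMP response element (CRE) TGACGTCA, an E-box and a GC box on the opposite strand.
Slc25a15: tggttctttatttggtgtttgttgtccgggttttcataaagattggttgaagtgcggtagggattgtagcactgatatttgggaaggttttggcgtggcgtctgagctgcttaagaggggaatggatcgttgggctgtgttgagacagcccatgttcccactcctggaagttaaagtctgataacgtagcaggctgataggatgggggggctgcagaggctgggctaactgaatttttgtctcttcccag
Slc25a22: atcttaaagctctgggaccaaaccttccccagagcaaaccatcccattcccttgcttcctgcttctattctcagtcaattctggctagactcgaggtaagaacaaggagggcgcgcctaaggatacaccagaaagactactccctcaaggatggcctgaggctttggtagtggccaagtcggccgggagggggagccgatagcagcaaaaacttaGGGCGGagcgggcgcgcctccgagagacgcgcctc
Slc25a33: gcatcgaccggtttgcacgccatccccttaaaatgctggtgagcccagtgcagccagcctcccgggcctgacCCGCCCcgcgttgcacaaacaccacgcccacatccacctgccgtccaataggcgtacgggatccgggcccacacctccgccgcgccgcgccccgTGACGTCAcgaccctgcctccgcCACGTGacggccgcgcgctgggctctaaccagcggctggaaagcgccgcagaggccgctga

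The motifs searched on both strands were that of NRF1, CRE (TGACGTCA), the CRE core (TGACGT, which overlaps the CRE), the E-box (CACGTG), ATF4 (TGATGNAAT) and the GC box (GGGCGG). Of the 36 members, 31 had a promoter in the RefSeq table of 33469 promoters. The GC box stood in 19 of the 31 (61.3%), against 30.5% of all promoters in windows of the same length. The CRE stood in Slc25a25 and Slc25a33 (6.45% against 1.59%), the CRE core in 5 members (16.1% against 6.95%) and the E-box in 3 (9.68% against 5.59%). No member's window held the NRF1 motif (3.75% of all promoters) or the ATF4 motif (0.944% of all promoters). All promoters of the table were counted, not only those of genes on the array, and windows were not matched for their share of G and C. These matches describe the letters of the windows only.

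Values below are the deposited probe-set intensities, and differences are ozone minus air on the scale log2(intensity + 16), with standard errors (SE) and adjusted p-values from limma. A gene is called where its p, adjusted over all 11626 genes by the Benjamini-Hochberg method, lies under 0.05. The offset and the background signal make differences of dim genes smaller than the change in RNA, and intensities of different probe sets cannot be ranked against each other as amounts. Because whole liver was measured, fewer cells of a type and less RNA per cell cannot be told apart.

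Array medians lay between 147 and 161 units, and probes for nonspecific binding read 85.2 to 92.0 units except on day 1 air replicate 2 (54.3) and day 1 ozone replicate 3 (66.1). The hepatocyte markers Alb, Apoa1, Ttr, Serpina1, Cyp2e1 and Cps1 had a summed intensity between 49868 and 55782 in every array, and 0 of the 6 were called in ozone minus air at any harvest time. Over all genes, 5 arrays had a correlation under 0.3 with the rest of their own group and over 0.5 with another group, each taken on deviations from the mean of all arrays. Air replicate 5 of day 2 had r = -0.52 with its own group and 0.60 with the ozone arrays of day 2. Ozone replicate 5 of day 2 had r = -0.25 with its own group and 0.66 with the ozone arrays taken at 18 h. The other three were air replicate 1 of day 2 (-0.015, against 0.66 with day 1 air), air replicate 1 at 18 h (0.26, against 0.70 with 18 h ozone) and air replicate 5 at 18 h (0.10, against 0.61 with day 1 air). Outside these limits, air replicate 5 of day 1 (0.51, against 0.61 with day 2 air) and air replicate 2 of day 2 (0.30, against 0.61 with day 1 air) also correlated less with their own group than with another. Nothing in the labels settles whether both replicates 5 of day 2 carry the right titles. All arrays stayed in the groups their titles give, so the values and counts of day 2 hold for the groups as titled, and the results of day 2 and 18 h are given with and without arrays that stood apart.

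**Figure D1:**
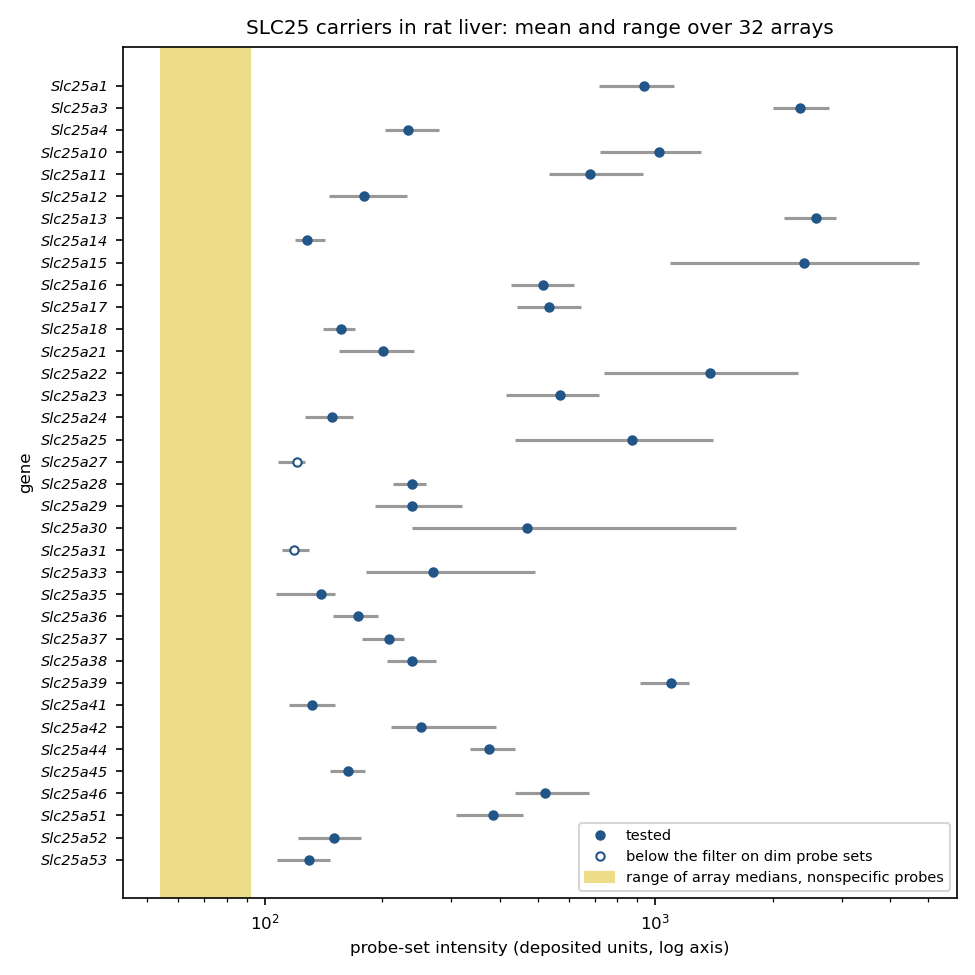
Mean intensity (points) and range over 32 arrays (bars) of the 36 SLC25 genes, in deposited units on a log axis, listed by gene number. The shaded band is the range of array medians of nonspecific probes, 54.3 to 92.0, and the open points are Slc25a27 and Slc25a31, which were not tested; the widest ranges are those of Slc25a30, Slc25a15, Slc25a25, Slc25a22 and Slc25a33.

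Ozone on day 1 changed 20 of the 34 tested carriers, 15 upward and 5 downward. That is 58.8% of the members, where 29.5% of all genes tested were called (13.1% higher and 16.4% lower). The median difference over the 34 was 0.05 against 0.00 over all genes, with 23 members above 0 and 11 below, and the called members moved by a median of 0.28. The ozone and air ranges did not overlap for 11 members that rose and 2 that fell, where 7.19% and 8.76% of all genes did so. Of the 27 members at or above the median intensity of all probe sets (158 units), 19 were called, and of the 7 below it only Slc25a24 was. The calls of Slc25a23, Slc25a36 and Slc25a44 were the least secure: Slc25a23 lost its call without ozone replicate 4 (adjusted p = 0.058), Slc25a36 without air replicate 4 or 6 or ozone replicate 6 (up to 0.086), and Slc25a44 without air replicate 3 or 6 or ozone replicate 3 or 5 (up to 0.069).

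Amino acid carriers gave 6 rises and 1 fall among 9 tested, where 13.1% of all genes were called higher and 16.4% lower on day 1. The groups of carriers here and below hold few genes, and none was tested against another. Slc25a15, the ornithine carrier that brings the substrate of the urea cycle into the matrix and takes citrulline out, had day 1 intensities of 1495 to 2258 after air (median 1669) and 3905 to 4739 after ozone (median 4604). Every ozone array was above every air array, and the difference was 1.31 ± 0.18 (SE; limma adjusted p = 1.6e-06), or 2.49-fold. A second probe set of Slc25a15 gave 1.56 ± 0.19 (adjusted p = 6.2e-07), in a test of each probe set singly.

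Slc25a22 carries glutamate into the matrix together with a proton, which feeds ammonia-releasing reactions there. Its day 1 intensities were 776 to 1433 after air (median 1112) and 1945 to 2318 after ozone (median 2151). The ranges were apart here too, with a difference of 0.99 ± 0.18 (limma adjusted p = 1e-04), or 1.98-fold. The air arrays were more spread (SD 242) than the ozone arrays (SD 129).

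The other amino acid carriers that rose did so by less. Slc25a29, a carrier of arginine and other basic amino acids, rose by 0.36 ± 0.06 (limma adjusted p = 1.6e-05), with intensities of 192 to 221 after air and 227 to 320 after ozone. Slc25a38, the glycine carrier needed for haem synthesis, rose by 0.17 ± 0.04 (adjusted p = 0.0011), and Slc25a44, a carrier of branched-chain amino acids, by 0.10 ± 0.03 (adjusted p = 0.024). A second probe set of Slc25a44 gave 0.11 ± 0.05 and was not called (limma adjusted p = 0.12). The aspartate-glutamate carriers of the malate-aspartate shuttle went opposite ways. Slc25a12 rose by 0.18 ± 0.05 (adjusted p = 0.0081), while Slc25a13, called citrin, fell by 0.18 ± 0.05 (-0.18, adjusted p = 0.0052), and its second probe set gave -0.17 (adjusted p = 0.021). For both genes the ozone and air ranges overlapped. Slc25a18, a second glutamate carrier, and Slc25a45 had differences of 0.02 and 0.01 and were not called.

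Among the 4 carriers of di- and tricarboxylates, 2 rose and 0 fell, where 13.1% of all genes were called higher and 16.4% lower. Slc25a11, which exchanges malate for 2-oxoglutarate and forms the other arm of the malate-aspartate shuttle, had intensities of 606 to 686 after air and 812 to 930.4 after ozone. It rose by 0.40 ± 0.06 (limma adjusted p = 2.2e-05) with no overlap. Slc25a10, the dicarboxylate carrier that exchanges malate or succinate for phosphate, rose by 0.27 ± 0.06 (adjusted p = 0.0019), from 895 to 1095 after air to 1142 to 1312 after ozone. Slc25a1, the citrate carrier, had a difference of -0.08 ± 0.08 (adjusted p = 0.45), and Slc25a21, the oxoadipate carrier, one of 0.11 ± 0.06 (adjusted p = 0.15).

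Carriers of adenine nucleotides, phosphate and coenzyme A (CoA) gave 4 rises and 2 falls among 8 tested, against 13.1% and 16.4% of all genes. Slc25a42, which imports CoA in exchange for adenine nucleotides, had intensities of 219.7 to 248 after air (median 221) and 292 to 391 after ozone (median 325). All 6 ozone arrays were above all 6 air arrays, and the difference was 0.51 ± 0.07 (limma adjusted p = 3.2e-06), or 1.42-fold. Slc25a3, the phosphate carrier that supplies ATP synthase, rose by 0.34 ± 0.05 (adjusted p = 1.9e-05), from 2008 to 2318 after air to 2561 to 2787 after ozone. Slc25a17, a carrier of CoA and related cofactors in the peroxisome membrane, rose by 0.24 ± 0.05 (adjusted p = 0.00054), and Slc25a4, an ADP/ATP carrier best known from heart and muscle, by 0.19 ± 0.04 (adjusted p = 0.00092). None of these 4 genes had overlapping ranges.

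The calcium-regulated ATP-Mg/phosphate carriers did not move with them. Slc25a23 had a difference of -0.29 ± 0.09 (limma adjusted p = 0.018) and Slc25a24 one of -0.15 ± 0.04 (adjusted p = 0.0076), both with overlapping ranges. Of the other probe sets of Slc25a23, one gave the same difference of -0.29 (adjusted p = 9.4e-05) and the dimmest gave 0.00 (adjusted p = 0.97). Slc25a25, the third of these carriers, was very uneven within groups, with 504 to 1109.9 after air and 502 to 1201 after ozone, and its difference of -0.15 ± 0.26 was not called. The related Slc25a41 had a difference of 0.04.

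Of the carriers of cofactors and nucleotides, 2 of 4 rose, where 13.1% of all genes were called higher. Slc25a33, which imports pyrimidine nucleotides and whose promoter is shown above, had day 1 intensities of 182 to 276 after air (median 208) and 272 to 494 after ozone (median 313). The highest air array, replicate 6, overlapped the lowest ozone array, and the difference was 0.66 ± 0.15 (limma adjusted p = 0.00075), or 1.58-fold. Its relative Slc25a36 rose by 0.12 ± 0.04 (adjusted p = 0.027), while the second, dimmer probe set of Slc25a36 gave 0.04 ± 0.03 (adjusted p = 0.36). Slc25a51, the NAD carrier, and Slc25a16 had differences of -0.01 and 0.03 and were not called.

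Slc25a30, a relative of the uncoupling proteins, fell most of all members. Its day 1 intensities were 379 to 1614 after air (median 801) and 240.1 to 298 after ozone (median 273). Every ozone array was below every air array, the air arrays spread over a wide range, and the difference was -1.40 ± 0.25 (limma adjusted p = 5.4e-05), or 2.64-fold lower. Its second and dimmer probe set gave -0.50 ± 0.10 (adjusted p = 0.00036). Slc25a14, the other tested member of this group, had a difference of -0.04 and was not called.

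The iron and glutathione carriers showed 1 fall among 3 tested, where 29.5% of all genes were called (16.4% lower). Slc25a37 (mitoferrin 1), which imports iron, fell by 0.13 on the log2 scale (-0.13 ± 0.04, limma adjusted p = 0.0047), from 202.4 to 223.2 after air to 177.2 to 201.8 after ozone, a narrow gap between the ranges. Its relative Slc25a28 (mitoferrin 2) had a difference of 0.06 and Slc25a39, needed for glutathione import, one of -0.09, both not called. Of the remaining members, Slc25a46, an outer membrane protein with a role in mitochondrial shape, rose by 0.33 ± 0.06 (adjusted p = 5.5e-05), from 447 to 517 after air to 564 to 676 after ozone. Its second probe set gave 0.18 (adjusted p = 0.055). Slc25a35, Slc25a52 and Slc25a53 lay between -0.07 and 0.04 and were not called.

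**Figure D2:**
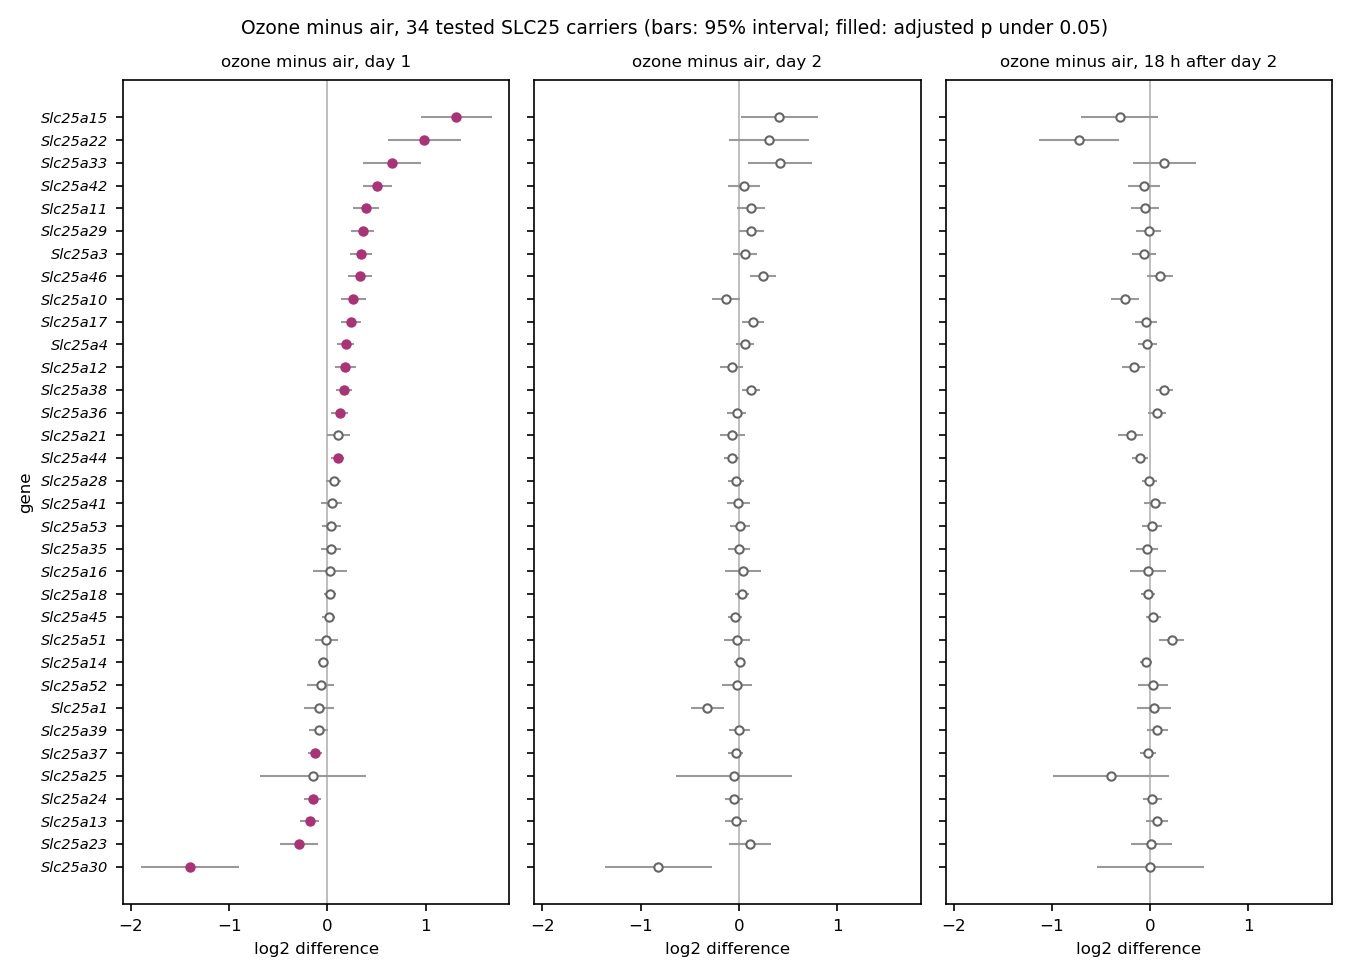
Ozone minus air on the log2 scale for the 34 tested carriers at each harvest time, with 95% confidence intervals from limma; filled points have an adjusted p under 0.05. On day 1, 15 points are filled to the right of 0 and 5 to the left, from 1.31 for Slc25a15 to -1.40 for Slc25a30; on day 2 and at 18 h no point is filled.

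The machinery that imports the carriers was measured with the same test. Of 13 genes, 7 rose and 0 fell on day 1, where 13.1% of all genes were called higher and 16.4% lower. The median over the 13 was 0.27. Of the small TIM chaperones, Timm10 (0.95 ± 0.12), Timm9 (0.79 ± 0.09), Timm8a1 (0.47 ± 0.08) and Timm8b (0.30 ± 0.06) rose. The small TIM genes Timm13 (0.03, limma adjusted p = 0.67) and Timm10b (-0.06, adjusted p = 0.46) were not called. The TOM channel Tomm40 (0.70 ± 0.07) and the TOM receptors Tomm20 (0.53 ± 0.09) and Tomm22 (0.27 ± 0.04) also rose. All 7 that rose had a limma adjusted p of 0.00015 or less. The receptor Tomm70 had a difference of -0.20 (adjusted p = 0.059), and the inner membrane subunits Timm22 (0.08) and Timm29 (-0.03) and the kinase Agk (-0.01) were not called. These lists, like the members, were chosen with earlier results of the same arrays known.

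Other transporters of mitochondria gave 2 rises and 1 fall among 15 tested, with a median of 0.05. That is a smaller share than the 29.5% of all genes called on day 1 (13.1% higher and 16.4% lower). The outer membrane channels Vdac3 and Vdac2 rose by 0.29 ± 0.05 and 0.21 ± 0.04 (limma adjusted p = 3.9e-05 and 0.00013), and the serine transporter Sfxn1 fell by 0.18 on the log2 scale (-0.18, adjusted p = 0.0087). The pyruvate carrier genes Mpc1 and Mpc2 had differences of -0.08 and -0.03.

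Enzymes on either side of the carriers gave 9 rises and 4 falls among 19 tested on day 1, with a median of 0.07. Over all genes, 13.1% were called higher and 16.4% lower. Beside the shuttle carriers, the cytosolic transaminase Got1 rose by 2.25 ± 0.32 (limma adjusted p = 4e-06), the malate dehydrogenase Mdh1 by 0.47 ± 0.06 and its mitochondrial partner Mdh2 by 0.17 ± 0.04, while the mitochondrial transaminase Got2 had a difference of 0.07 (adjusted p = 0.17). Among the enzymes of the urea cycle, Asl rose by 1.13 ± 0.14, Arg1 by 0.36 ± 0.09 and Ass1 by 0.27 ± 0.08. Otc, which uses the ornithine that Slc25a15 brings in, had a difference of -0.20 ± 0.05 (adjusted p = 0.0014), and Cps1 one of 0.04 (adjusted p = 0.57). Next to the citrate carrier, citrate synthase (Cs) rose by 0.34 ± 0.05, whereas ATP citrate lyase (Acly) and malic enzyme (Me1) fell, with differences of -1.10 ± 0.27 and -0.42 ± 0.11 (adjusted p = 0.0021 and 0.004).

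Some markers of other liver cells were called on day 1, all of them lower, where 16.4% of all genes were called lower and 13.1% higher. Of 8 Kupffer cell markers 2 were lower (Lyz2 -0.63 and Adgre1 -0.27), with a summed intensity of 5120.0 to 6217 after air and 3994 to 6322 after ozone. Of 5 endothelial markers 2 were lower (Tek -0.17 and Stab2 -0.20), with sums of 2367 to 3147 after air and 2222 to 3020.3 after ozone. Lrat, 1 of 7 stellate cell markers, and Epcam, 1 of 4 cholangiocyte markers tested, were lower by -0.34 and -0.31. Their sums were 2406 to 3008 and 805 to 973 after air, and 2110 to 2768 and 798 to 865 after ozone. Of the 6 erythroid and 4 lymphocyte markers tested, 0 were called, nor were S100a9 of neutrophils and Adipoq of fat, the 1 marker of each list that was bright enough to test. The part of these markers in the carrier results was not tested.

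At the end of day 2, 0 of the 34 carriers were called by limma, where 0.705% of all genes were (0.464% higher and 0.241% lower). An unadjusted p under 0.05 was found for 7 members. Here and below, the share of all genes with an unadjusted p under 0.05 was not counted. Such counts are therefore no result about the carriers. The smallest adjusted p was 0.058, that of Slc25a1, whose 5 air arrays read 963, 1031, 1087, 1116 and 926 and whose ozone arrays read 748, 916, 830.2, 808 and 779.7. All ozone arrays were below all air arrays for this gene, and its difference was -0.32 ± 0.08. No other member had separate ranges, where 1.49% of all genes did (1.06% higher and 0.43% lower). Slc25a46 had a difference of 0.24 ± 0.06 (adjusted p = 0.060).

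Both arrays numbered 5 of day 2 lay across their groups for the genes that had changed on day 1. Slc25a15 read 1558, 2100, 2069, 1847 and 2974 in the air arrays and 2943, 2489, 4084, 3755 and 1391 in the ozone arrays, in the order of their replicate numbers. The highest air array and the lowest ozone array were the replicates 5, and the difference was 0.41 ± 0.19 (limma adjusted p = 0.35, 95% interval 0.02 to 0.80). Slc25a22 read 893, 1109, 1064, 1169 and 1962 after air and 1719, 1342, 2062, 1850.0 and 799 after ozone, again with replicate 5 on the far side in both groups, and had a difference of 0.30 ± 0.20 (adjusted p = 0.60).

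The same order held for further members. Slc25a33 read 217, 215, 204, 208 and 379 after air and 322, 265, 416, 417 and 240 after ozone (0.42 ± 0.16, limma adjusted p = 0.19). Slc25a42 read 226, 231, 222, 217 and 328 after air and 236, 242, 290.4, 264 and 230 after ozone (0.05 ± 0.08, adjusted p = 0.93). Slc25a30 read 1039, 820, 496, 365 and 303 after air and 282, 306, 294, 239 and 409 after ozone (-0.82 ± 0.27, adjusted p = 0.12). Of the 15 members that rose on day 1, air replicate 5 of day 2 was the highest of its group for 13 and ozone replicate 5 the lowest of its group for 11. Of the 5 that fell, ozone replicate 5 was the highest for 4 and air replicate 5 the lowest for 3. These ranks were not counted for other genes, and both arrays also stood apart over all genes, as given above.

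**Figure D3:**
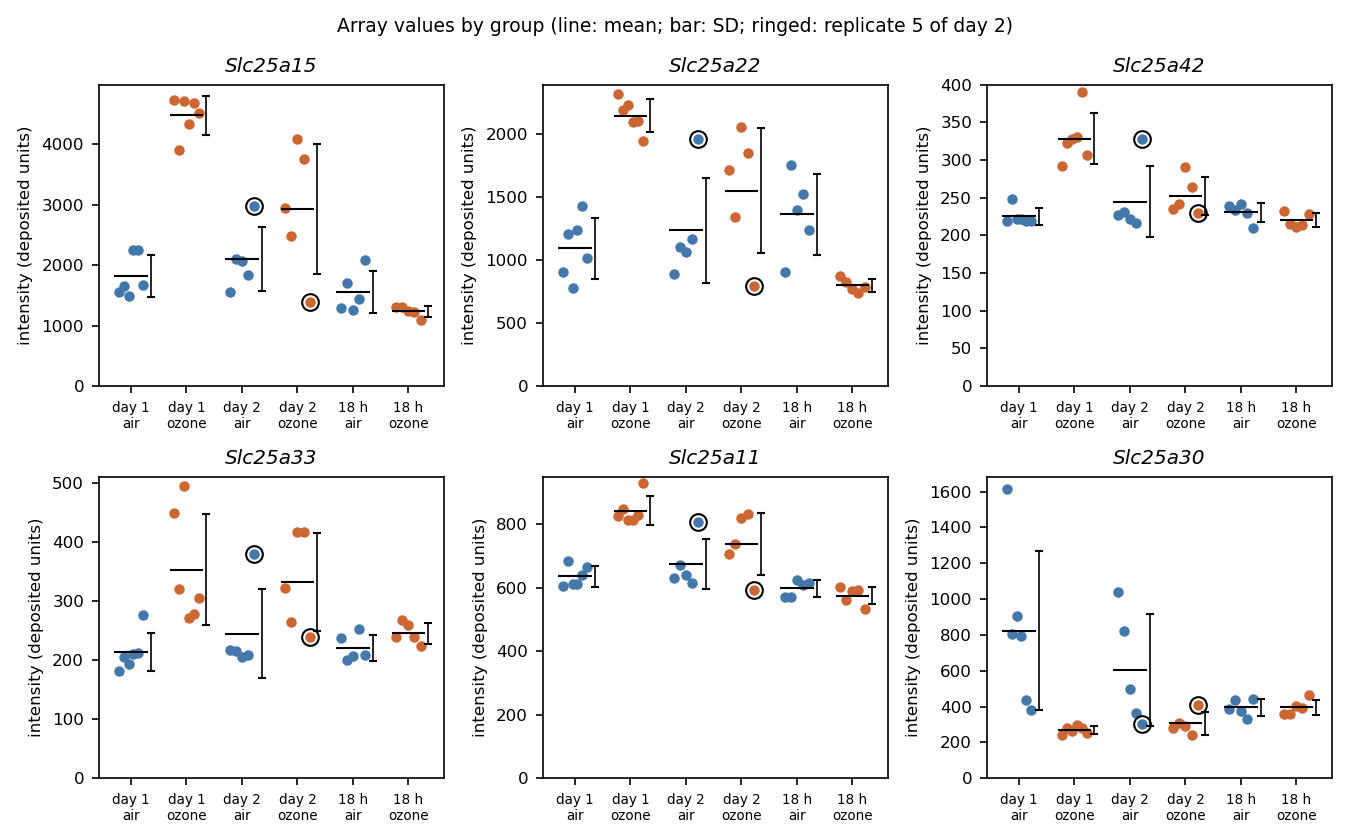
Intensity of each array (points; linear axis from 0) for 6 carriers in the 6 groups, with the group mean (line) and SD (bar); replicate 5 of day 2 is ringed in both exposures. Slc25a15, Slc25a22, Slc25a42 and Slc25a11 (ozone higher) and Slc25a30 (ozone lower) show separate air and ozone ranges on day 1. On day 2 the ringed air array is the highest and the ringed ozone array the lowest of its group for the first 5 genes drawn.

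Without these 2 arrays, 9 carriers were higher and 2 lower after ozone on day 2, where 12.8% of all genes were called. Slc25a15 then had a difference of 0.79 ± 0.15 (limma adjusted p = 5e-04), Slc25a22 one of 0.70 ± 0.16 (adjusted p = 0.0027), Slc25a33 one of 0.69 ± 0.15 (adjusted p = 0.0016) and Slc25a46 one of 0.36 ± 0.06 (adjusted p = 5.2e-05). Slc25a3, Slc25a11, Slc25a17, Slc25a38 and Slc25a42 were also higher, by 0.18 to 0.26. Lower were Slc25a30 (-1.13 ± 0.28, adjusted p = 0.006) and Slc25a1 (-0.34 ± 0.09, adjusted p = 0.012). Leaving out arrays because they lie far from their own group by itself widens the gap between the groups, so these values stand beside those of all arrays and do not replace them.

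For the import genes, day 2 gave 0 calls of 13, where 0.705% of all genes were called. The median of these 13 was 0.17, with Tomm20 at 0.35 (limma adjusted p = 0.073). An unadjusted p under 0.05 was found for 9 of them, again without a share of all genes beside it. Of the partner enzymes only Acly was called on day 2, with a difference of -1.26 ± 0.29 (adjusted p = 0.045). Lyz2 was the 1 Kupffer cell marker called (-0.40, adjusted p = 0.046), and its part was not tested.

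The ozone effect was smaller on day 2 than on day 1 for 5 carriers when the difference of both effects was tested, where 5.09% of all genes were called (3.13% higher and 1.96% lower). The difference was -0.46 ± 0.11 for Slc25a42 (limma adjusted p = 0.011), -0.39 ± 0.10 for Slc25a10 (adjusted p = 0.015), -0.90 ± 0.26 for Slc25a15 (adjusted p = 0.038), -0.18 ± 0.05 for Slc25a44 (adjusted p = 0.041) and -0.27 ± 0.08 for Slc25a3 (adjusted p = 0.042). All 5 had risen on day 1. With single arrays left out, Slc25a42 and Slc25a10 were called each time, while Slc25a3, Slc25a15 and Slc25a44 lost their calls for many of the arrays, and 2 to 7 carriers were called, with 2.54% to 7.67% of all genes. Without the replicates 5 of day 2 only Slc25a42 was called (-0.32 ± 0.08, adjusted p = 0.034; 2.04% of all genes), and Slc25a15 had -0.53 ± 0.19 (adjusted p = 0.17).

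At 18 h after day 2 again 0 of the 34 carriers were called in ozone minus air by limma, where 1.17% of all genes were (0.86% higher and 0.31% lower), and 7 had an unadjusted p under 0.05. Slc25a22, the glutamate carrier, read 904, 1756, 1399, 1524 and 1239 after air and 876, 825, 769, 741 and 789 after ozone. Every ozone array was below every air array, the reverse of the order on day 1, with a difference of -0.73 ± 0.20 (adjusted p = 0.060). Slc25a10 had a difference of -0.26 ± 0.07 (adjusted p = 0.060), with 805 to 1072 after air and 722 to 886 after ozone.

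Slc25a51, the NAD carrier, read 309 to 386 after air and 402 to 437 after ozone, without overlap (0.22 ± 0.06, limma adjusted p = 0.086). Slc25a38 lay between 214 and 239 after air and between 244 and 261 after ozone (0.14 ± 0.04, adjusted p = 0.087). Besides Slc25a51, Slc25a38 and Slc25a22, the ranges were apart for Slc25a46 (higher) and Slc25a44 (lower), 5 of 34 in all, where 2.76% of all genes had separate ranges (1.89% higher and 0.869% lower). Second probe sets, each tested singly with limma, gave less. They read -0.06 for Slc25a46 (adjusted p = 0.87), -0.03 for Slc25a44 (adjusted p = 0.92) and 0.18 for Slc25a51 (adjusted p = 0.42). Slc25a15 was no longer high after ozone: it read 1294, 1704, 1265, 1444 and 2089 after air and 1311, 1304, 1246, 1220 and 1094 after ozone (-0.31 ± 0.19, adjusted p = 0.57). Slc25a30 read 386, 438, 374, 333 and 444 after air and 358, 357, 403, 394 and 464 after ozone (0.00 ± 0.27, adjusted p = 1).

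Slc25a33 and Slc25a42 also had overlapping ranges at 18 h. Slc25a33 read 237, 200.2, 208, 252 and 208 after air and 239, 268, 259, 239 and 224 after ozone (0.15 ± 0.16, limma adjusted p = 0.82). Slc25a42 read 239.7, 234, 241, 229 and 210.3 after air and 232, 215, 211, 214 and 228 after ozone (-0.06 ± 0.08, adjusted p = 0.85). Without air replicate 1 of 18 h, 1 of the arrays that stood apart, 5 of 34 carriers were called at this time, 2 higher and 3 lower, while the share of all genes called also rose, to 3.54%. Of the other lists, the pyruvate carrier gene Mpc1 (-0.29, adjusted p = 0.025) was called at 18 h, as was the endothelial marker Stab2 (0.28, adjusted p = 0.033), whose part was not tested.

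Between the end of day 2 and 18 h later, 1 carrier rose and 6 fell in the ozone groups, 20.6% of the 34, where 11.3% of all genes were called (7.1% higher and 4.16% lower). Slc25a15 changed most, from the 1391 to 4084 given above to 1094 to 1311, a difference of -1.15 ± 0.19 (limma adjusted p = 0.00034), and its second probe set gave -1.19 ± 0.21. Slc25a22 fell by 0.87 on the log2 scale (-0.87 ± 0.20, adjusted p = 0.0047), Slc25a11 had -0.34 ± 0.07 (adjusted p = 0.0022) and Slc25a10 had -0.32 ± 0.07 (adjusted p = 0.0034). Slc25a21 (-0.21 ± 0.06) and Slc25a17 (-0.17 ± 0.06) fell by less, and Slc25a39 rose by 0.16 ± 0.05 (adjusted p = 0.029, 0.039 and 0.040). The second, dimmer probe set of Slc25a39 did not show this rise (0.02 ± 0.04, limma adjusted p = 0.91, in a test of each probe set singly). Only Slc25a15 (lower) and Slc25a39 (higher) had separate ranges between these harvests, where 6.29% of all genes did (4.38% higher and 1.91% lower). Slc25a10, Slc25a11, Slc25a15 and Slc25a22 were called with any 1 array left out, while Slc25a17, Slc25a21 and Slc25a39 lost their calls for several arrays, among them ozone replicates 1, 3 and 4 of day 2 and 5 of 18 h, without each of which 4 carriers were called. The share of all genes called without each of these arrays was 5.55% to 8.51%. Without ozone replicate 5 of day 2, 10 carriers were called, and the share of all genes rose to 17%. Over the same interval 8 of 19 partner enzymes fell and 0 rose, and of the import genes 2 rose and 3 fell.

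The air groups were compared over the same interval. In air 0 of 34 carriers were called by limma, where 0.12% of all genes were (0.086% higher and 0.0344% lower), and 6 had an unadjusted p under 0.05. No carrier had separate ranges in air, where 1.14% of all genes did (0.654% higher and 0.49% lower). For the 4 carriers with the smallest adjusted p in ozone, air gave -0.42 ± 0.19 for Slc25a15 (adjusted p = 0.47), 0.16 ± 0.20 for Slc25a22 (adjusted p = 0.90), -0.16 ± 0.07 for Slc25a11 (adjusted p = 0.44) and -0.19 ± 0.07 for Slc25a10 (adjusted p = 0.32). When the change of the ozone effect from day 2 to 18 h was itself tested, 0 of 34 carriers were called (0.0086% of all genes), and 6 had an unadjusted p under 0.05. The difference was -1.03 ± 0.28 for Slc25a22 (adjusted p = 0.28) and -0.72 ± 0.27 for Slc25a15 (adjusted p = 0.42), so a fall that differs between ozone and air was not shown with all arrays. Without the replicates 5 of day 2 it was called for 6 carriers (7.06% of all genes), with -1.43 ± 0.21 for Slc25a22 (adjusted p = 0.00011) and -1.10 ± 0.20 for Slc25a15 (adjusted p = 0.00088).

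**Figure D4:**
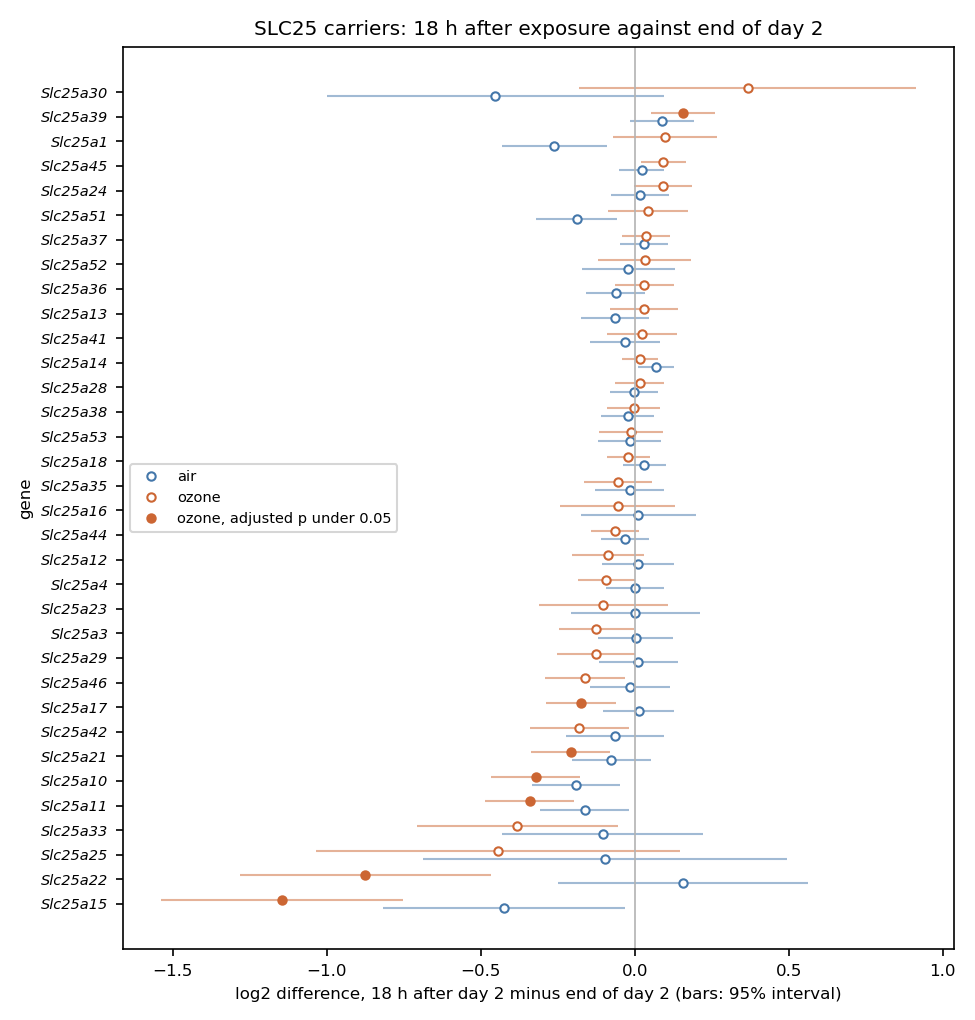
Difference between 18 h after day 2 and the end of day 2 on the log2 scale for the 34 tested carriers, in air (blue) and ozone (orange), with 95% confidence intervals. The 7 filled ozone points have an adjusted p under 0.05, led by Slc25a15 at -1.15 and Slc25a22 at -0.87, while no air point is called.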

How the data were processed

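Liver RNA was measured on 32 single-colour rat arrays. The deposited values are probe-set intensities (linear, 30.5 to 15558), made by the authors with the PLIER method and Expression Console as the submitters' processing notes name them. Their versions, the background correction and any scaling were not given in the sources used here. Groups and replicate numbers came from the sample titles, and every array was used.

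Of 31139 probe sets, 97 were controls, 11407 had no gene name and 572 named several genes; none of these was used. Of the other 19063, those under the 25th percentile of mean log2(intensity + 16) were dropped, and the brightest left stood for its gene (11626 genes). All 36 members' symbols matched RefSeq. Differences came from limma 3.58.1 in R 4.3.3 (lmFit, eBayes with trend, 6 group means, 7 contrasts, two-sided, Benjamini-Hochberg over all genes, threshold 0.05), tested on simulated data. The members and lists were chosen with earlier results of these data known. Named with values were members called in any contrast, and array by array those with an ozone difference of at least 0.5, together with members whose values were singled out after they were seen (Slc25a1, Slc25a10, Slc25a25, Slc25a51 and others not called). Motif matches and figures used Python 3.11.15. Offsets, normalization, filters, probe-set rules, a replicate block and left-out arrays were tried as alternatives.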

Additional observations from a re-analysis of the deposited data

Results flagged for a closer look

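Among 132 groups (22 members in 6 groups), 14 held an array far from the others by Dixon's ratio, the gap to the nearest array over the range of the group; chance gives about 1 in 20 groups. On day 2, replicate 5 was that array in 8 of them. In the ozone group it was highest for Slc25a13 (0.776), Slc25a23 (0.754) and Slc25a37 (0.864) and lowest for Slc25a3 (0.803) and Slc25a21 (0.738). In the air group it was highest for Slc25a33 (0.903), Slc25a42 (0.847) and Slc25a36 (0.767).

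On day 1, air replicate 2 was highest for Slc25a42 (0.902) and lowest for Slc25a24 (0.652); this array also had the lowest nonspecific signal (54.3 units). Air replicate 5 was lowest for Slc25a23 (0.687), air replicate 6 highest for Slc25a33 (0.639) and ozone replicate 6 highest for Slc25a11 (0.683). At 18 h, ozone replicate 4 was lowest for Slc25a29 (0.796).

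The ozone effect differed between day 2 and day 1 (limma, difference of both effects) for Slc25a15 (-0.90), Slc25a42 (-0.46), Slc25a10 (-0.39), Slc25a3 (-0.27) and Slc25a44 (-0.175).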

How the results depend on the processing

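The count of carriers called on day 1 (20) lay between 17 and 20 under every setting run. With 1 array left out, 26.6% to 30.1% of all genes were called on day 1, while that share is not given here for the other settings. Slc25a36, Slc25a44 and Slc25a23 were not called under some settings. Of the single-gene values, 354 of 420 kept their call with one array left out and 304 of 337 under other settings; the rest lost it, and 0 reversed.

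The later counts moved, and the cause was not tested. With one array left out the ranges were 0 to 5 on day 2 (5 without air replicate 5, and 5 without ozone replicate 5), 0 to 5 at 18 h (5 without air replicate 1), 2 to 7 for the day 2 effect minus the day 1 effect, 0 to 2 for the 18 h effect minus the day 2 effect (2 without ozone replicate 5 of day 2, 1 without air replicate 5), 0 to 1 in air from day 2 to 18 h (1 without air replicate 5 of 18 h) and 4 to 10 in ozone over that time (4 without ozone replicate 1, 3 or 4 of day 2 or 5 of 18 h; 10 without ozone replicate 5 of day 2). The share of all genes called moved as well, from 0.0086% to 8.41% on day 2 and from 0.275% to 3.54% at 18 h. For the differences of effects it was 2.54% to 7.67% and 0% to 1.86%. Between day 2 and 18 h it was 0% to 0.714% in air and 5.55% to 17% in ozone. A further setting, chosen after seeing the data, left out the 5 arrays with a correlation under 0.3 to their own group and over 0.5 to another. It gave 10 on day 2, 5 at 18 h, 2 and 7 for the differences of effects, 1 in air and 11 in ozone. The share of all genes under that setting is not given here, so its counts are no result about carriers alone. Leaving out both day 2 replicates 5 gave 11, 1, 6 and 11 for day 2, the differences of effects and ozone over time. The shares of all genes called there were 12.8%, 2.04%, 7.06% and 19.1%. Leaving out both arrays of low nonspecific signal gave 2 for the day 2 effect minus the day 1 effect. Quantile normalization gave 2 at 18 h. The day 2 effect minus the day 1 effect gave 3 with the mean of all probe sets and 3 with only the arrays compared. For these last settings, from low nonspecific signal on, the matching shares of all genes are not given here. Their counts are likewise no result about carriers alone.

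The correlations showed no clear pairing of arrays by replicate number. Of the same-numbered pairs, 1 of 16 between air and ozone had a correlation over 0.1 (-0.58 to 0.26), as did 3 of 10 between day 2 and 18 h (-0.60 to 0.26). Of the air arrays, 2 of 16 correlated best with their own number. With so few arrays, some far from their own group, this does not settle whether a number marks a shared chamber or day. The labels do not say. With the replicate number as a block, 17 carriers were called on day 1, 0 on day 2 and at 18 h, 1 for the day 2 effect minus the day 1 effect and 4 in ozone over time. The share of all genes under the block is not given here for day 1 or for ozone over time. Those counts are therefore no result about carriers alone.

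Over all genes, 82 were called on day 2, against 137 with quantile normalization, 22 with no filter, 17 with the mean of probe sets, 1 with only the arrays compared and 3 with the block. At 18 h 136 were called, against 1 with only the arrays compared and 35 with the block. For the difference of effects between day 2 and day 1, 592 stood against 75 with the block. Array number and background signal limit what small differences of dim carriers can show.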
